A study of Homo sapiens with 6 samples.

Results

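SHMT1 shRNA F11 was compared with a non-silencing (NS) shRNA in PEO4, a cell line established from a high-grade serous cancer of the ovary. The comparison took every array of either label, 2 F11 arrays and 2 NS arrays, 4 of the 6 in the series, and every probe above background on at least 2 arrays. The knockdown cells expressed SHMT1 shRNA F11 and the control cells NS shRNA, and both carried a lentiviral vector, were enriched on puromycin and grew in RPMI medium with fetal bovine serum. The other 2 arrays, of a second SHMT1 shRNA called F12, entered only the estimate of the spread. The labels do not say whether the arrays of a label came from separate infections or cultures, and the methods' general statement on biological replicates does not name the arrays, so the p-values rest on a spread between arrays that may be technical alone. With 1 shRNA against 1 control shRNA, loss of SHMT1 and any other effect of the F11 hairpin cannot be told apart.

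SHMT1 encodes the cytosolic serine hydroxymethyltransferase, which moves a one-carbon unit between serine, glycine and folate and so feeds the making of thymidylate, purines and methionine. SHMT2 is its mitochondrial counterpart, and the glycine cleavage system, with GLDC as its decarboxylase, breaks glycine down in mitochondria to yield the same kind of folate-bound unit. At its brightest probe SHMT1 had normalized intensities of 291 and 342 with F11, against 542 and 544 with NS. The groups did not overlap (both F11 arrays were below both NS arrays for 20.3% of all tested genes, and above for 24.4%), the F11 mean was 58.3% of the NS mean, and limma gave a change of -0.78 in log2 units (SE 0.0812, adjusted p = 0.00535). At the dimmer probes, 99.5 and 100.4 with F11 stood against 116 and 126 with NS (adjusted p = 0.0713), and 109.5 and 92.6 with F11 against 106 and 101 with NS (adjusted p = 0.889), close to the background limit of 91.6.

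Few other folate genes passed. Of 24 tested genes of one-carbon and folate metabolism GLDC rose, SHMT1 fell and 22 did not pass, while of all tested genes 1.91% rose and 1.88% fell. GLDC had 385 and 419 with F11, against 248 and 266 with NS, with a change of 0.64 in log2 units (SE 0.083, adjusted p = 0.0107), and no array of one group reached into the range of the other. SHMT2 had 1936 and 1989 with F11, against 1832 and 1598 with NS (adjusted p = 0.301). The purine enzymes ATIC (0.20, adjusted p = 0.141) and GART (0.25, adjusted p = 0.185), the folate receptor FOLR1 (0.32, adjusted p = 0.0945) and thymidylate synthase TYMS (0.00, adjusted p = 0.996) did not pass, all values being log2 fold changes. None of 30 tested genes of purine and pyrimidine synthesis passed, and IMPDH2, which commits inosinate to guanine nucleotides, came nearest (0.41, adjusted p = 0.0532).

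Next to the folate cycle, PSAT1, the aminotransferase in the making of serine, had 417 and 406 with F11, against 607 and 602 with NS. It fell by 0.56 on the log2 scale (standard error 0.0597, adjusted p = 0.00592) and was the only one of 11 tested serine genes that passed. PYCR1, which completes proline synthesis, rose 1.51-fold (0.60, adjusted p = 0.0106), alone among 27 tested ATF4 targets and genes of the unfolded protein response. AHCY, which clears S-adenosylhomocysteine, rose 1.31-fold (0.39, adjusted p = 0.0415), and DNMT3L, a catalytically inactive partner of the DNA methyltransferases, fell 1.25-fold (-0.32, adjusted p = 0.0408), the 2 of 12 tested genes of the methionine cycle and DNA methylation that passed. Whether a named gene kept or lost its call with an array left out was judged at its brightest probe, here and for the groups that follow. All 6 calls around the folate cycle, that of SHMT1 included, were lost when either NS array was left out, 2 also with either F12 array left out, and 1 without F11 replicate 1 and 2 without F11 replicate 2. The adjusted p-values were then between 0.05435 and 0.23, and those of SHMT1 were 0.05435 and 0.05862.

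The cells carried the markers of their line, but not all held their level. The keratins KRT7 and KRT8 fell to 66.4% and 65.6% of NS, while KRT18 and KRT19 did not pass (values are given with the epithelial genes). PAX8, the Mullerian transcription factor, had 1006 and 1039.5 with F11, against 984 and 953 with NS, MUC16, which encodes CA125, had 1541 and 1588 with F11, against 1389 and 1516 with NS, and EPCAM, an epithelial adhesion protein, had 4413 and 3615 with F11, against 4011 and 4189 with NS. WT1, a transcription factor kept in serous tumours, had 1083 and 1204 with F11, against 965 and 1143 with NS, with overlapping groups (adjusted p = 0.638). Markers of other cell types were few and did not pass. Tested were 7 of 11 fibroblast markers, with a summed intensity of 2786 and 2605 with F11 against 2939 and 2753 with NS, most of it from THY1, 4 of 13 leukocyte markers (847 and 746 with F11 against 815 and 713 with NS) and 2 of 9 endothelial markers (188 and 185 with F11 against 197 and 191 with NS). PTPRC, CD3E, PECAM1, VWF, CDH5, PDGFRB and FAP were not above background on 2 arrays.

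Across all genes, 246 rose and 242 fell with F11 among 12852 tested, 1.91% and 1.88% (3.8% in either direction). At the brightest probe of each gene 236 were higher and 226 lower, with median log2 fold changes of 0.44 and -0.47, against 0.01 over all tested genes. At least 1.5-fold were 56 and 56 of these, at least 2-fold 13 and 9, and 3-fold only GFRA2. For none of these calls at the brightest probe did the F11 and NS arrays overlap, while of all tested genes 24.4% had both F11 arrays above both NS arrays and 20.3% had both below. With 2 arrays a group a call at this threshold nearly requires such a separation. The lack of overlap therefore describes called genes, here and below, and is no added support for them. Replicate arrays correlated across tested probes with r = 0.994 for F11 and 0.996 for NS, and F11 with NS arrays with r from 0.990 to 0.994 (probes are not independent replicates).

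**Figure D1:**
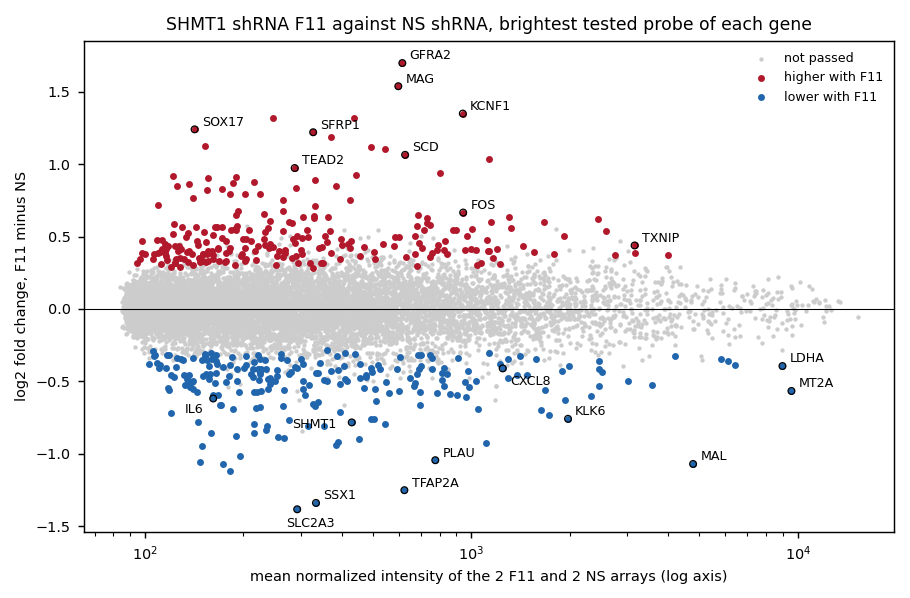
Log2 fold change of F11 over NS (vertical) against the mean normalized intensity of the 4 arrays (horizontal, log axis), 1 point per gene at its brightest tested probe, red where it rose, blue where it fell, and ringed where named. Rises lie mostly at low and middle intensity, and above 4096 there are 7 falls and no rise.

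Calls were found at every level of brightness. Below a mean intensity of 128 over the 4 arrays compared, 33 genes rose and 17 fell of 4593 at their brightest probe (1.09%), between 128 and 256 these were 88 and 84 of 3270 (5.26%), and above 4096 they were 0 and 7 of 186 (3.76%). The mode of the intensities was 85.5, and whether background was subtracted before is not stated. If that level is background light, a dim gene's fold change comes out too small. For 8 genes that rose the NS arrays, and for 2 that fell the F11 arrays, were both at or below the background limit, and their fold is given as at least the ratio to that limit (on the log2 scale, each dim array taken at the limit or its own value where higher). Of 160 called genes with more than 1 tested probe, all probes passed in 25 and all pointed the same way in 145 (90.6%, against 61.4% of uncalled genes with several probes).

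The calls leaned on the control arrays and on F12 for their spread. A group left with 1 array adds nothing to the spread. Differences between the replicate arrays of a group had a standard deviation of 0.158 for F11, 0.126 for NS and 0.105 for F12 on the log2 scale. Fits without an F11 array therefore leave out the widest of these spreads. Calls kept there do not measure variation between F11 arrays. Leaving out either F12 array gives the same fit as the 4 arrays compared alone, since the F12 array that stays adds nothing to the spread. The F12 fits here and below are therefore not separate checks. Without NS replicate 1 they were 45 higher and 46 lower, without NS replicate 2 they were 40 and 41, and with either F12 array left out 90 and 83, while without F11 replicate 1 they were 290 and 283 and without F11 replicate 2 they were 236 and 228. A total of 64 genes, 31 higher and 33 lower, passed with each of the 6 arrays left out in turn, and 36 higher and 34 lower genes passed in none of these fits.

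**Figure D2:**
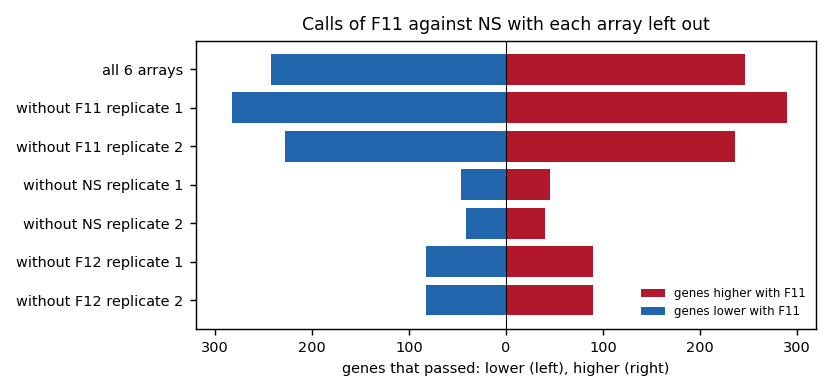
Number of genes that passed with F11 against NS in the fit of all 6 arrays and with each array left out, lower genes to the left and higher genes to the right of 0. The bars shrink to 45 and 46 genes without NS replicate 1 and to 40 and 41 without NS replicate 2, and grow to 290 and 283 without F11 replicate 1.

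The 15 genes that rose most included receptors, channels and secreted proteins, transcription factors and lipid enzymes. GFRA2, the receptor that presents neurturin to the RET kinase, rose most, with 912 and 966 with F11, against 293 and 286 with NS and a change of 1.70 in log2 units (SE 0.059, adjusted p = 0.000214). MAG, a sialic acid-binding adhesion protein of myelin, had 987 and 791 with F11, against 331 and 279 with NS, and KCNF1, a modifying subunit of voltage-gated potassium channels, had 1329 and 1375 with F11, against 525 and 537 with NS. They rose 2.9-fold and 2.55-fold. FAM174B, a membrane protein, rose 2.49-fold, SEMA3A, a secreted repellent of growing axons, 2.49-fold, and SFRP1, a secreted WNT antagonist, 2.33-fold. SOX17, a transcription factor of endoderm and Mullerian epithelium, had 197 and 202 with F11, against 83.0 and 85.7 with NS, where NS was not above background, and was at least 2.17-fold higher with F11 (adjusted p = 0.000349). TOX2, a nuclear protein with an HMG box, rose 2.28-fold, ALKAL2, a ligand of the ALK receptor, 2.18-fold, and the ubiquitin hydrolase UCHL1 2.17-fold. The other five were PLTP, SCD, CYP1B1, TEAD2 and SERPINE2, at 1.92-fold to 2.15-fold. These calls were kept with every array left out for 12 of the 15. Lost were UCHL1, CYP1B1 and SERPINE2, 2 of them without NS replicate 1 and 2 without NS replicate 2 (adjusted p from 0.0588 to 0.066).

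**Figure D3:**
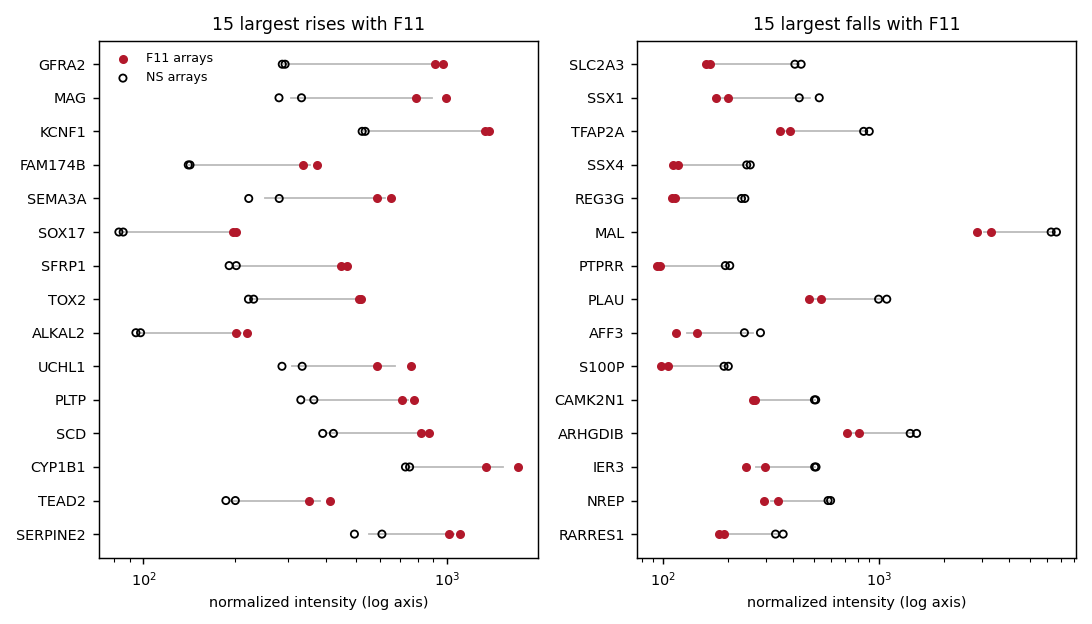
Normalized intensity (log axis) on the 2 F11 arrays (red, filled) and the 2 NS arrays (open) for the 15 genes that rose most and the 15 that fell most, with a grey line between the group means. In every row the 2 groups are apart by more than their replicates are, as with GFRA2 at 912 and 966 with F11 against 293 and 286 with NS and MAL at 3317 and 2859 with F11 against 6289 and 6656 with NS.

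Among the 15 genes that fell most, SLC2A3, the neuronal-type glucose transporter GLUT3, came first with 158 and 166 with F11, against 409 and 437 with NS and a change of -1.38 in log2 units (SE 0.0615, adjusted p = 0.000349). The cancer-testis antigens SSX1 and SSX4 fell 2.53-fold and 2.18-fold, and TFAP2A, the AP-2 alpha transcription factor, 2.38-fold. REG3G, a secreted antimicrobial lectin, had 114 and 110.0 with F11, against 239.7 and 231 with NS, and PTPRR, a phosphatase that acts on MAP kinases, had 94.3 and 97.4 with F11, against 195 and 204 with NS. Both were near background with F11. MAL, a lipid raft protein of apical transport, was the brightest of these genes, with 3317 and 2859 with F11, against 6289 and 6656 with NS, and fell 2.1-fold. The urokinase gene PLAU fell 2.06-fold, AFF3, a nuclear protein of elongation complexes, 2.02-fold, the calcium-binding S100P 1.93-fold and the CaM kinase II inhibitor CAMK2N1 1.92-fold. IER3, NREP and RARRES1 fell 1.85-fold to 1.89-fold. With each array left out 12 of the 15 kept their call. SSX4, AFF3 and IER3 lost it, 2 without NS replicate 1 and all without NS replicate 2 (adjusted p from 0.0518 to 0.0903).

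The glucose transporters SLC2A3 and SLC2A1 and several glycolytic genes were lower with F11. Tumour cells take up glucose through the GLUT transporters, and HIF and the MondoA-TXNIP circuit help set how much of it they take. Of 39 tested genes of hypoxia and glycolysis, 6 fell and 1 rose (15.4% and 2.56%), with a median log2 fold change of -0.11. GLUT3 is described above, and SLC2A1, the general transporter GLUT1, had 791 and 807 with F11, against 1273 and 1310.5 with NS, with a change of -0.69 in log2 units (SE 0.0748, adjusted p = 0.00599). LDHA, which turns pyruvate into lactate, had 7395 and 8139 with F11, against 10337 and 10064 with NS, a 1.31-fold decrease, and triosephosphate isomerase TPI1 fell 1.25-fold (-0.33, adjusted p = 0.0477). ADM, a hypoxia-induced vasodilator peptide, had 1399.5 and 1325 with F11, against 2015 and 2004 with NS and fell 1.48-fold. PGK1 passed at its dimmer probe, with 659 and 594 with F11 against 870 and 828 with NS (-0.44, adjusted p = 0.0326), and not at its brighter one (-0.02, adjusted p = 0.938). Other steps did not pass, with GAPDH at -0.01, ALDOA at 0.00, ENO1 at -0.10, HK2 at -0.44, HK1 at 0.34 and PFKM at 0.36 on the log2 scale (adjusted p from 0.0538 to 0.999). CA12, a membrane carbonic anhydrase induced by hypoxia and by oestrogen, ran the other way with 347 and 398 with F11, against 209.9 and 207 with NS, a 1.78-fold increase.

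Outside that list, and chosen after their values were seen, TXNIP, which restrains GLUT1 at the membrane, rose 1.35-fold with 3407 and 3883 with F11, against 2704 and 2666 with NS, the pentose phosphate enzyme TKT rose 1.56-fold with 1521 and 1645 with F11, against 983 and 1052 with NS, and PGM1, which links glycogen with glycolysis, fell 1.45-fold with 1883 and 2145 with F11, against 2833 and 2989 with NS. In none of these genes did the groups overlap. They were the 2 that rose and the 1 that fell among 20 tested genes of a mixed list, and 17 did not pass. The shares were 10% and 5.0%, against 1.91% and 1.88% of all tested genes. Glucose transporters, regulators of glucose uptake, pentose phosphate enzymes and PGM enzymes make up this list. It was put together after values were seen, so its shares are descriptions. SLC2A3 alone of the 9 genes of glucose use called at the brightest probe passed with every array left out. Without NS replicate 1 or NS replicate 2, 7 and 7 of the 9 were lost, with either F12 array left out 4, and 2 with either F11 array left out (adjusted p from 0.0518 to 0.253), where LDHA still passed at another probe without F11 replicate 1, and LDHA, TPI1 and TXNIP did not pass after normexp background correction.

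**Figure D4:**
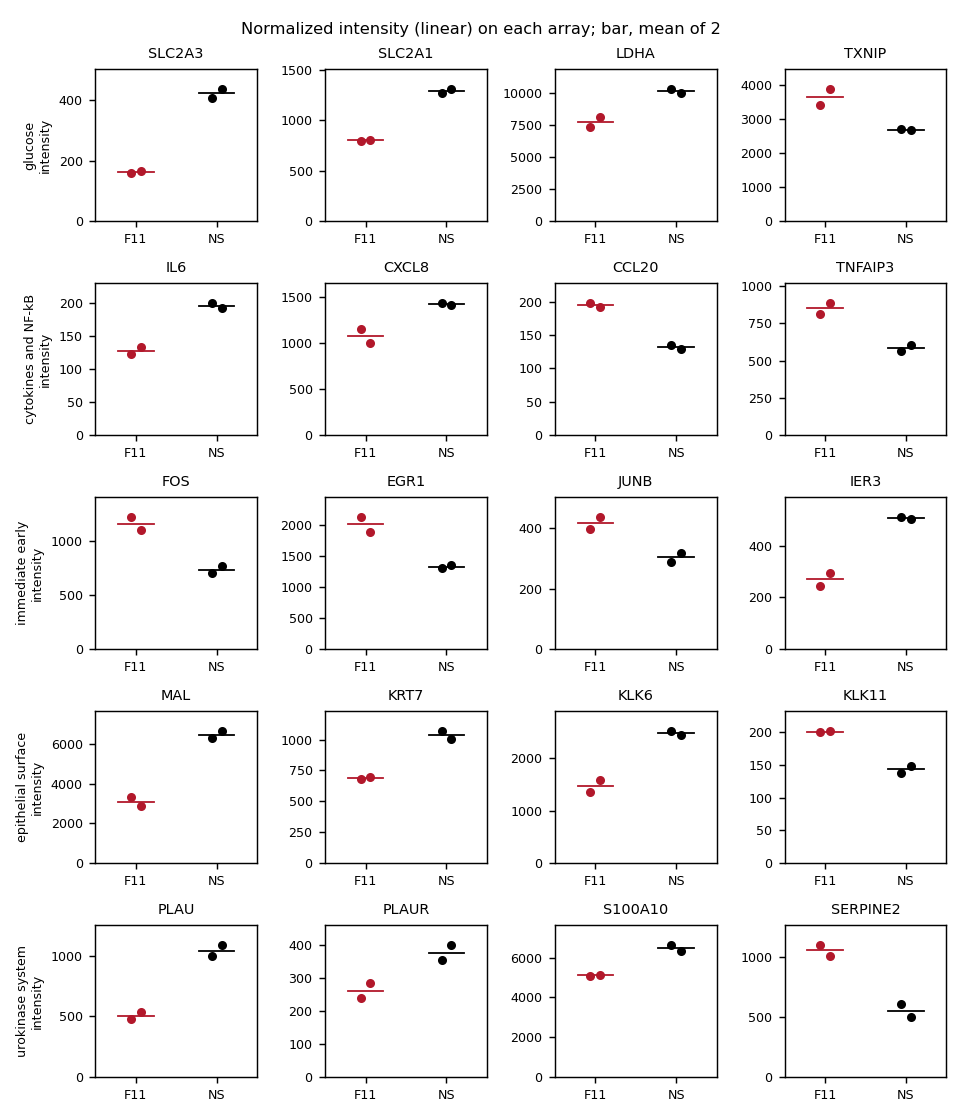
Normalized intensity (linear, from 0) of 20 genes on the 2 F11 arrays (red, left) and the 2 NS arrays (black, right), each with a bar at the group mean, in rows for glucose use, cytokines and NF-kB, immediate early genes, the epithelial surface and the urokinase system. In each panel the 2 groups are apart, with SLC2A3 at 158 and 166 with F11 against 409 and 437 with NS, and TXNIP at 3407 and 3883 with F11 against 2704 and 2666 with NS.

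Genes of inflammatory signalling moved in both directions. IL-6 and IL-8, encoded by IL6 and CXCL8, are secreted by many carcinomas and are induced through NF-kB and AP-1 sites near their start sites, and NF-kB also induces the chemokine CCL20 and TNFAIP3, the A20 protein that switches NF-kB signalling off. The bases just upstream of the start site of these genes in RefSeq (GRCh38.p14) are shown because all of them passed, IL6 and CXCL8 lower and CCL20 and TNFAIP3 higher, while sharing such motifs. All are on the plus strand, at chr7:22727050-22727199 for IL6, chr4:73740419-73740568 for CXCL8, chr2:227813692-227813841 for CCL20 and chr6:137867109-137867258 for TNFAIP3. Capitals mark matches on either strand to an NF-kB consensus, to GGANTTTCC, which can overlap it, or to TGANTCA, the AP-1 element.
IL6: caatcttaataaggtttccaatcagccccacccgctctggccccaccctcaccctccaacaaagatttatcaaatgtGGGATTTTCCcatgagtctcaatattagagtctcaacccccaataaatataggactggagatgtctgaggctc
CXCL8: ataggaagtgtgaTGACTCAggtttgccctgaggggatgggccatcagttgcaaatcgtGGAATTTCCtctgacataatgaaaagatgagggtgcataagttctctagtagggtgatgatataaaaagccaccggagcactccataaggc
CCL20: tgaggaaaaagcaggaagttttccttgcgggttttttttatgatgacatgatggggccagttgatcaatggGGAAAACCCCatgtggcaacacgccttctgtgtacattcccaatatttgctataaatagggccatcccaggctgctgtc
TNFAIP3: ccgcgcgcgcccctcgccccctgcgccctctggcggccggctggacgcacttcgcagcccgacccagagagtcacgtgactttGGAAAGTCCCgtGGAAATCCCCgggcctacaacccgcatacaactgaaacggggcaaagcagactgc
Positions counted back from the start site were -73 to -64 in IL6, -79 to -70 in CCL20, and -67 to -58 and -55 to -46 in TNFAIP3 for the NF-kB consensus. In CXCL8 GGANTTTCC lay at -91 to -83 and TGANTCA at -137 to -131, and GGANTTTCC also lay within the consensus match of IL6 and the first of TNFAIP3. A match is a description of these letters and no measured site.

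IL6 had 122 and 133 with F11, against 199.6 and 192 with NS, with a change of -0.62 in log2 units (SE 0.0637, adjusted p = 0.00525), and CXCL8 had 1148 and 997 with F11, against 1433 and 1411 with NS, with a change of -0.41 in log2 units (SE 0.0777, adjusted p = 0.0435). CCL20 had 198 and 193 with F11, against 135 and 129 with NS, with a change of 0.56 in log2 units (SE 0.0626, adjusted p = 0.00663), and TNFAIP3 had 816 and 887 with F11, against 562 and 605 with NS, with a change of 0.54 in log2 units (SE 0.0722, adjusted p = 0.0118). Genes with such a match thus passed in both directions, none with overlapping arrays. PTGS2, the inducible cyclooxygenase, rose at its dimmer probe, with 192 and 178 with F11 against 147 and 148 with NS (0.32, adjusted p = 0.0407), and did not pass at the brighter one, with 360.1 and 258 with F11, against 232 and 228 with NS (adjusted p = 0.231). In all, 3 of 37 tested cytokine and NF-kB genes rose, 2 fell and 32 did not pass (8.11% and 5.41%), and the list is no independent evidence for IL6 and CXCL8, which the study singled out on these samples. Among those that did not pass, CCL5 stood at -0.48, CXCL2 at 0.44, TNFAIP2 at 0.31, SOD2 at 0.20, NFKBIA at 0.09 and CXCL1 at -0.02 on the log2 scale (adjusted p from 0.0797 to 0.990). None of 19 tested genes of IL-6 and STAT3 signalling passed, with the shared receptor subunit IL6ST at 464 and 502 with F11 against 578 and 710.4 with NS (adjusted p = 0.141). The calls of all 4 genes were lost without NS replicate 1 and those of 3 without NS replicate 2 (adjusted p from 0.0541 to 0.221), and that of CXCL8 also without F11 replicate 2, with either F12 array left out, after normexp and after cyclic loess.

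Over all genes motifs were counted in the 300 bases from 250 before to 50 after the start site, on both strands, for the 180 risers and 180 fallers with a RefSeq promoter. The NF-kB consensus was in 20.0% of promoters of genes that rose and 11.7% of those that fell, against 12.9% of 10230 tested genes and 10.8% of all 27305 promoters. TGANTCA was in 2.78% of the genes that rose and 10.0% of those that fell, against 4.6% of the tested genes and 7.76% of all promoters. GGANTTTCC was in 1.67% of the genes that rose and 2.78% of those that fell, against 1.69% of the tested genes. GCCNNNGGC, the AP-2 element, was in 51.1% of the genes that rose and 26.7% of those that fell, against 31.7% of the tested genes and 23.0% of all promoters. The promoters differed in base composition too, with a median of 67.0% G and C in the genes that rose, 62.0% in those that fell and 65.0% in the tested genes, and its part in these shares was not tested.

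Immediate early genes, whose transcription follows growth factor signals within minutes, split as well. FOS and JUNB encode AP-1 subunits and EGR1 a zinc finger factor, and the pair of CArG boxes that bind serum response factor is shown upstream of EGR1 (GRCh38.p14 chr5:138465329-138465478, plus strand, boxes in capitals at -105 to -96 and -83 to -74).
EGR1: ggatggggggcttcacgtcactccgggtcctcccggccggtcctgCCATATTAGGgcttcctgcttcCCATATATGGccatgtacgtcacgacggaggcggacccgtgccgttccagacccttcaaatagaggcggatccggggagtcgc
FOS had 1219 and 1096 with F11, against 697 and 762 with NS, EGR1 had 2132 and 1895 with F11, against 1301 and 1348 with NS and JUNB had 398 and 438 with F11, against 289 and 318 with NS. They rose 1.59-fold, 1.52-fold and 1.38-fold (adjusted p = 0.00686, 0.00821 and 0.0236). IER3, a stress-induced survival gene, and CCN1, a matricellular protein, were lower, with 243 and 296 with F11, against 512 and 505 with NS for IER3 and 845 and 863 with F11, against 1120.0 and 1299.6 with NS for CCN1, decreases of 1.89-fold and 1.41-fold (adjusted p = 0.00556 and 0.0267). Of 27 tested genes of this class 3 rose, 2 fell and 22 did not pass (11.1% and 7.41%). A CArG box was in 2.22% of promoters of genes that rose, 0.556% of those that fell and 1.04% of the tested genes, a match in 4 genes that rose and 1 that fell.

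Downstream of the same signals, RASD1, a Ras-like G protein, rose 1.73-fold with 222 and 242 with F11, against 135 and 132 with NS. DUSP5, the nuclear ERK phosphatase, fell 1.39-fold with 402 and 395 with F11, against 539 and 567 with NS, and PHLDA1, a growth factor-induced protein, 1.38-fold with 1124 and 1198 with F11, against 1580.3 and 1612 with NS. The other 18 of 21 tested MAP kinase feedback genes did not pass. Of the 8 immediate early and feedback genes called at the brightest probe RASD1 kept its call with every array left out. EGR1, JUNB, IER3, PHLDA1 and DUSP5 lost theirs with either NS array left out, FOS without NS replicate 1 and CCN1 without NS replicate 2. JUNB and CCN1 also lost theirs with either F12 array left out, and JUNB without F11 replicate 2. After normexp, CCN1 and PHLDA1 did not pass.

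Transcription factors of the AP-2, TEAD and SOX families were among the genes with the largest changes. TFAP2A, an AP-2 factor of ectoderm and of many carcinomas, had 350.0 and 388 with F11, against 851 and 904 with NS, with a change of -1.25 in log2 units (SE 0.0776, adjusted p = 0.000962). Its second probe fell as well, with 172 and 162 with F11 against 362 and 339 with NS (-1.07, adjusted p = 0.00237), and its other two probes, close to background, did not pass. Its relative TFAP2C, with 233 and 235 with F11, against 227 and 202 with NS, did not pass (adjusted p = 0.527), nor did the other 4 tested AP-2 genes and co-regulators. TEAD2, one of the DNA-binding partners of the Hippo effector YAP, had 410.3 and 352 with F11, against 201 and 187 with NS, with a change of 0.97 in log2 units (SE 0.0853, adjusted p = 0.00261). TEAD1, TEAD3 and TEAD4 stood at 0.08, -0.09 and 0.15 on the log2 scale (adjusted p from 0.378 to 0.734). Targets of YAP and partners of TEAD that passed ran opposite to TEAD2. VGLL1, a TEAD cofactor, had 110.5 and 114 with F11, against 165 and 161 with NS, and F3, tissue factor, had 139 and 154 with F11, against 204 and 211 with NS. With CCN1 and the secreted FSTL1 they fell 1.24-fold to 1.45-fold, so that 4 of 22 tested genes of this list fell and 1 rose (18.2% and 4.55%), with a median log2 fold change of -0.12. CCN2, a classical YAP target, did not pass at 1323 and 1149 with F11, against 1769 and 1443 with NS (adjusted p = 0.151).

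The homeobox gene HOXC4 rose 1.73-fold with 308 and 265 with F11, against 169 and 161 with NS and was the only one of 11 tested HOX genes that passed. The forkhead factors FOXA2 (1.38-fold) and FOXD2 (1.32-fold) rose, and the other 28 tested forkhead genes did not pass. KLF9, a hormone-responsive Kruppel-like factor, fell 1.27-fold with 227 and 234 with F11, against 294 and 290.2 with NS. TFAP2A, TEAD2 and SOX17 kept their calls with every array left out. The other 8 factors and targets lost theirs, 6 without NS replicate 1, 8 without NS replicate 2, 5 with either F12 array left out, and 4 without F11 replicate 1 and 1 without F11 replicate 2 (adjusted p from 0.05002 to 0.22). F3 still passed at another probe without F11 replicate 1, and FSTL1, CCN1 and KLF9 did not pass after normexp, nor FSTL1 and KLF9 with an intensity trend.

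A few receptors, ligands and channels of the nervous system passed, in both directions. The neurotrophin BDNF, which signals through TrkB, was lower with F11, with 162 and 174 with F11, against 256 and 284 with NS and a change of -0.68 in log2 units (SE 0.0713, adjusted p = 0.00547), the opposite direction to GFRA2. SORL1, a sorting receptor, rose at its dimmer probe, with 192 and 188 with F11 against 142 and 147 with NS (0.40, adjusted p = 0.0201), and did not pass at the brighter (adjusted p = 0.0904). So 2 of 10 tested neurotrophin and GDNF family genes rose and 1 fell (20.0% and 10.0%, against 1.91% and 1.88% of all tested genes). Of 38 tested potassium channel subunits 3 rose and none fell (7.89%, against 1.91% of all tested genes). Both F11 arrays lay above both NS arrays in 10 and below in 12, with a median log2 fold change of 0.005. KCNF1 is described above, KCNT1, a sodium-activated channel, had 227 and 235 with F11, against 148 and 147 with NS, a 1.56-fold increase, and KCNG1, another modifying subunit, rose 1.4-fold with 229 and 246 with F11, against 171 and 168 with NS. SEMA3A was the only one of 22 tested semaphorins and plexins that passed, and TUBB2B, a tubulin of developing neurons with 117 and 109.6 with F11, against 91.4 and 82.9 with NS, the only one of 22 tubulins. NS was not above background for TUBB2B, and its rise was at least 1.24-fold (adjusted p = 0.0406). GFRA2, ALKAL2, MAG, SEMA3A, KCNF1 and KCNT1 kept their calls with every array left out. BDNF lost its call without NS replicate 2 (adjusted p = 0.0518), and UCHL1, KCNG1 and TUBB2B theirs without one or both NS arrays, TUBB2B also without F11 replicate 1 or either F12 array (adjusted p up to 0.209).

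Among growth factor receptor kinases FGFR3 rose 1.46-fold with 364 and 380.4 with F11, against 267 and 243 with NS, FGFR4 rose 1.36-fold with 161 and 175 with F11, against 119 and 128 with NS, and TYRO3, a receptor of GAS6, rose 1.32-fold with 159 and 150.0 with F11, against 120.3 and 114 with NS. No other of the 21 tested kinases of this list passed (14.3% higher). In the WNT pathway, where AXIN2 is a widely used target of beta-catenin, 2 of 33 tested genes rose and 2 fell. SFRP1 had 468 and 448 with F11, against 191 and 202 with NS and the receptor FZD8 159 and 181 with F11, against 128 and 133 with NS, increases of 2.33-fold and 1.3-fold. AXIN2 had 113 and 119 with F11, against 169 and 176 with NS and the ligand WNT10A 186 and 176 with F11, against 224 and 229 with NS, decreases of 1.49-fold and 1.25-fold. Of 7 tested carriers of insulin-like growth factors 3 passed, IGFBP2 higher with 193 and 202 with F11, against 107 and 117 with NS (1.77-fold) and IGFBP6 and IGFBP3 lower with 2038 and 2179 with F11, against 2666 and 2955 with NS for IGFBP6 and 551 and 516 with F11, against 687 and 655 with NS for IGFBP3. The shares of these carriers were 14.3% higher and 28.6% lower, against 1.91% and 1.88% of all tested genes. SFRP1 and IGFBP2 kept their calls with every array left out. The other 8 lost theirs, 7 without NS replicate 1, all without NS replicate 2, 6 with either F12 array left out, and 2 without F11 replicate 1 and 3 without F11 replicate 2 (adjusted p from 0.0539 to 0.249). IGFBP3 still passed at another probe with either F12 array or F11 replicate 2 left out. WNT10A, IGFBP3 and IGFBP6 did not pass after normexp, nor WNT10A and IGFBP3 with an intensity trend.

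Several surface and keratin genes of the epithelium were lower with F11. MAL fell at both of its probes, the dimmer with 1283 and 1317 with F11 against 3148 and 3474 with NS (-1.35, adjusted p = 0.00054). KRT7 and KRT8, keratins of simple epithelium, had 682 and 695 with F11, against 1070.5 and 1003 with NS for KRT7 and 807 and 717 with F11, against 1096 and 1228 with NS for KRT8, and KRT80 had 457 and 449 with F11, against 606 and 678 with NS. These 3 of 16 tested keratins fell, 1.42-fold to 1.52-fold, while KRT19 (5586 and 5635 with F11, against 5516 and 5793 with NS) and KRT18 (188 and 213 with F11, against 245 and 211 with NS) did not pass (adjusted p = 0.971 and 0.428). None of the 16 rose, and 18.8% fell, against 1.88% of all tested genes. CD24, a mucin-like surface protein, had 1875 and 1805 with F11, against 2679 and 2915 with NS, a 1.52-fold decrease. Of the kallikrein-related peptidases, secreted proteases encoded side by side on chromosome 19, KLK6 had 1364 and 1579 with F11, against 2527 and 2441 with NS, KLK7 had 1265 and 1229 with F11, against 2022 and 2022 with NS and KLK8 had 222 and 244 with F11, against 307 and 331 with NS, decreases of 1.69-fold, 1.62-fold and 1.37-fold. Their neighbour KLK11 rose 1.4-fold with 200.1 and 202 with F11, against 138 and 149 with NS, and the other 3 of 7 tested kallikreins did not pass. Of the 7, 42.9% fell and 14.3% rose, against 1.88% and 1.91% of all tested genes.

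SOX17, OVGP1, the oviduct glycoprotein (153 and 138 with F11, against 104 and 112 with NS), and KLK11 were the 3 of 28 tested genes of Mullerian and serous epithelium that rose, and 6 fell (10.7% and 21.4%). WFDC2, which encodes HE4, had 2699.9 and 2307 with F11, against 1876 and 1903 with NS and did not pass (adjusted p = 0.108), nor did the mesothelin gene MSLN (-0.07, adjusted p = 0.748) or the oestrogen receptor ESR1 (0.22, adjusted p = 0.13). CLDN16, a claudin of tight junctions, fell 1.58-fold with 236 and 269.6 with F11, against 366 and 432 with NS, the only one of 14 tested claudins that passed, and the tetraspanin TSPAN1 fell 1.46-fold with 110.2 and 118 with F11, against 154 and 180.3 with NS. MAL and KLK7 kept their calls with every array left out. The other 10 of these 12 genes lost theirs, 9 with either NS array left out, 6 with either F12 array left out and 3 without F11 replicate 1 (adjusted p from 0.0518 to 0.189).

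Genes of the urokinase system, which activates plasmin at the cell surface, passed in both directions. In a wider list, put together after values were seen, 6 of 15 tested genes fell and 2 rose. The shares were 40% and 13.3%, against 1.88% and 1.91% of all tested genes. This list also holds genes of coagulation and other proteases and inhibitors, so its shares do not describe the urokinase system alone. PLAU encodes the protease, PLAUR its receptor, and S100A10, chosen after its values were seen, a plasminogen-binding subunit. PLAU had 475 and 538 with F11, against 998 and 1089 with NS, with a change of -1.04 in log2 units (SE 0.0815, adjusted p = 0.00236). PLAUR had 238 and 283 with F11, against 352 and 399 with NS, a 1.44-fold decrease (adjusted p = 0.0481), and S100A10 had 5074 and 5143 with F11, against 6639.9 and 6359.9 with NS, a 1.27-fold decrease (adjusted p = 0.0266). The inhibitor SERPINE2, protease nexin-1, was higher, with 1099 and 1009.6 with F11, against 609 and 495 with NS, an increase of 1.92-fold (adjusted p = 0.0105), while the tissue-type activator PLAT did not pass at 671 and 908 with F11, against 667 and 861 with NS (adjusted p = 0.95). In none of these 4 that passed did the groups overlap. The other genes of that list that passed were PRSS23 (413 and 385 with F11, against 674 and 708 with NS), SERPINB8 (134 and 146 with F11, against 187 and 194 with NS) and F3, which fell, and PROCR, the protein C receptor, which rose 1.42-fold with 349 and 334 with F11, against 257 and 225 with NS.

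Of 50 tested genes of matrix, adhesion and mesenchymal transition 7 fell and 3 rose (14% and 6.0%), with a median log2 fold change of -0.11, and 21 had both F11 arrays below both NS arrays (20.3% of all tested genes did) against 9 above (24.4%). VIM, the intermediate filament of mesenchymal cells, had 249 and 264 with F11, against 429 and 472 with NS, with a change of -0.81 in log2 units (SE 0.0754, adjusted p = 0.00348), and SPARC, a collagen-binding secreted protein, had 345 and 344 with F11, against 485 and 490.0 with NS, a 1.42-fold decrease. The cadherin CDH6, the hyaluronan synthase HAS3 and the TGF-beta receptor TGFBR2 fell 1.3-fold to 1.36-fold. COL4A1, of basement membrane, rose 1.3-fold with 122 and 119 with F11, against 91.2 and 93.7 with NS, and FMOD, a collagen-binding proteoglycan, 1.34-fold with 270.0 and 281 with F11, against 214 and 197 with NS. Outside that list the collagens COL8A1 and COL16A1 fell 1.81-fold and 1.37-fold, with 109.9 and 117 with F11, against 204 and 206 with NS for COL8A1, and the integrin ITGB2 1.34-fold. The epithelial cadherin CDH1 was at 1185 and 1292 with F11, against 1196 and 1331 with NS and the neural cadherin CDH2 at 113 and 108 with F11, against 122 and 117 with NS, and neither passed (adjusted p = 0.919 and 0.46). PLAU, VIM and COL8A1 kept their calls with every array left out. The other 11 of 14 lost theirs, 10 without NS replicate 1, all without NS replicate 2, 9 with either F12 array left out and 4 with either F11 array left out (adjusted p from 0.05002 to 0.246), and S100A10, TGFBR2 and ITGB2 did not pass after normexp, nor TGFBR2 with an intensity trend. TGFBR2 without F11 replicate 1 and ITGB2 without F11 replicate 2 still passed at another probe.

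Metallothioneins, small cysteine-rich proteins that bind zinc and copper and are induced by metals, fell at 4 of 7 tested members. This was 57.1%, against 1.88% of all tested genes. MT1M had 162 and 175 with F11, against 297 and 304 with NS, MT1G had 260.1 and 269 with F11, against 411 and 415 with NS and MT2A, the brightest, had 7703 and 7724 with F11, against 11750.0 and 11108 with NS. With MT1F (612 and 596 with F11, against 781 and 806 with NS) they made up these 4, at decreases of 1.31-fold to 1.78-fold, none rose, and 6 of the 7 had both F11 arrays below both NS arrays, against 20.3% of all tested genes (median log2 fold change -0.39). Members of this family share much of their sequence, so that a probe can report more than 1 of them.

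Secreted defence proteins moved both ways. DEFB1, an epithelial defensin, had 150.0 and 165 with F11, against 259.9 and 286 with NS, S100P had 106 and 97.8 with F11, against 192 and 201 with NS and RARRES1, a retinoid-induced membrane protein, had 182 and 192 with F11, against 361 and 333 with NS, decreases of 1.73-fold, 1.93-fold and 1.85-fold. HP, haptoglobin, had 374 and 368 with F11, against 231 and 247 with NS, the protease inhibitor SERPINA3 had 128 and 132 with F11, against 101 and 97.9 with NS and complement factor B, CFB, had 2125 and 2392 with F11, against 1473 and 1721 with NS, increases of 1.55-fold, 1.31-fold and 1.42-fold. They were the 3 that fell and the 3 that rose among 20 tested acute-phase and antimicrobial genes (15% each way). S100A11 fell 1.4-fold with 327 and 356 with F11, against 466 and 491 with NS. MT1M, MT1G, S100P, DEFB1, RARRES1, REG3G and HP kept their calls with every array left out. MT2A, MT1F, S100A11, SERPINA3 and CFB lost theirs with either NS array left out, 4 of them with either F12 array left out, and 1 without F11 replicate 2 (adjusted p from 0.0538 to 0.189), and MT1F and CFB did not pass after normexp.

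Interferon-stimulated genes, which short hairpin RNAs can induce in some cells, showed no common direction. The GTPase GBP2 rose 1.49-fold with 918 and 868 with F11, against 622 and 574 with NS and the antiviral MX1 1.29-fold with 4523 and 4494 with F11, against 3562 and 3402 with NS. IFIT2, which binds viral RNA, fell 1.5-fold with 665 and 589 with F11, against 905 and 971 with NS, and OASL and RSAD2 fell 1.32-fold and 1.33-fold. The other 41 of 46 tested genes did not pass, among them ISG15 (3842 and 4387 with F11, against 4019.6 and 4440.2 with NS), IFIT1 (1639 and 1399 with F11, against 1694 and 1691 with NS) and IFI27 (9599 and 9792 with F11, against 9410.0 and 9911 with NS). TAP1, the peptide transporter, rose 1.3-fold with 952 and 957 with F11, against 731 and 735 with NS, the only one of 18 tested MHC class I and peptide processing genes that passed, with 8 of the 18 higher on both F11 arrays (24.4% of all tested genes were) and 0 lower (median log2 fold change 0.11). None of 15 tested genes of the RNA interference machinery passed, with the slicer AGO2 at 739 and 608 with F11, against 768 and 800.0 with NS (adjusted p = 0.305). All 6 of these calls were lost in at least 1 fit with an array left out, 5 without NS replicate 1, 6 without NS replicate 2, 5 with either F12 array left out, and 1 without F11 replicate 1 and 2 without F11 replicate 2 (adjusted p from 0.0519 to 0.221), and MX1, OASL and TAP1 did not pass after normexp.

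Few genes of a cell cycle and DNA replication list passed, and those that did rose. Genes of cell division outside the list passed in both directions, as with SKA2 lower and CDCA8 higher. Of 59 tested cell cycle and DNA replication genes 3 rose and none fell (5.08%), the median log2 fold change was 0.11, and 31 had both F11 arrays above both NS arrays (24.4% of all tested genes did) against 4 below (20.3%). BIRC5, survivin, had 1215 and 1365 with F11, against 1012 and 943 with NS and the mitotic kinesin KIF20A had 736 and 866 with F11, against 556 and 612 with NS, increases of 1.32-fold and 1.37-fold. AURKA, a spindle kinase, rose at its dimmer probe, with 1144 and 1192 with F11 against 954 and 883 with NS (0.35, adjusted p = 0.0467), and missed the threshold at the brighter (0.22, adjusted p = 0.106). TOP2A (0.25), MKI67 (0.21), MCM4 (0.35), CDK1 (0.04) and PCNA (-0.13) did not pass (adjusted p from 0.170 to 0.922). Among 29 tested p53 targets and apoptosis regulators the BH3 protein BIK fell 1.38-fold with 126 and 127 with F11, against 176 and 172 with NS, and ZMAT3, a p53 target, rose at a dimmer probe, with 373 and 399 with F11 against 269 and 283 with NS (0.49, adjusted p = 0.0106). Its brightest probe did not pass and its F11 arrays differed widely, with 4232 and 2692 with F11, against 2673 and 2449 with NS (adjusted p = 0.368).

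In mitochondria the carrier UCP2 rose 1.42-fold with 811 and 765 with F11, against 538 and 573 with NS and SDHA, of complex II, 1.28-fold with 849.5 and 836 with F11, against 638 and 674 with NS, and the other 53 of 55 tested respiratory chain and uncoupling genes did not pass. That list does not hold every such gene. Outside it, and chosen after their calls were seen, NDUFS4, of complex I, and ATP5MK, of the ATP synthase, fell. None of 16 tested genes of homologous recombination, of 18 aminoacyl-tRNA synthetases or of 11 reference genes passed, nor did any of 73 ribosomal protein genes. The 5 calls of BIRC5, KIF20A, BIK, UCP2 and SDHA were lost with either NS array left out, 3 of them with either F12 array left out, 1 without F11 replicate 1 and 3 without F11 replicate 2 (adjusted p from 0.0541 to 0.265), and BIRC5, KIF20A and SDHA did not pass after normexp.

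Sialic acid caps the sugar chains of cell surface proteins, and it is made from UDP-N-acetylglucosamine and activated by CMAS. None of 25 tested genes of amino sugar and sialic acid metabolism passed. CMAS had 626 and 709.6 with F11, against 739 and 723 with NS (adjusted p = 0.462), and UGP2, which makes UDP-glucose, came nearest with 959 and 934 with F11, against 1127 and 1180.5 with NS (adjusted p = 0.061). The median log2 fold change of the list was -0.07, with 7 genes below (20.3% of all tested genes were) and 2 above (24.4%) on both F11 arrays. At later steps ST6GALNAC4, which adds sialic acid to O-linked sugars, rose 1.54-fold with 367 and 434 with F11, against 254 and 263 with NS, the only one of 13 tested sialyltransferases that passed. GALNT9 and GALNT4, which start mucin-type O-glycosylation, rose 1.77-fold and 1.35-fold, with 218 and 222 with F11, against 125 and 123 with NS for GALNT9 and 242 and 269 with F11, against 182 and 195 with NS for GALNT4, and the other 14 of 16 genes of that list did not pass. GALNT9 kept its call with every array left out, and ST6GALNAC4 and GALNT4 lost theirs at the brightest probe when any NS or F12 array was left out, and GALNT4 also without F11 replicate 2 (adjusted p from 0.0546 to 0.17), while ST6GALNAC4 still passed at another probe with either F12 array left out.

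Among lipid and redox enzymes, SCD, the stearoyl-CoA desaturase, had 874 and 821 with F11, against 422 and 389 with NS and rose 2.09-fold (1.06, adjusted p = 0.00144), alone among 25 tested genes of sterol and fatty acid synthesis. PLTP, which moves phospholipids between lipoproteins, had 711 and 777 with F11, against 329.6 and 364 with NS, a 2.15-fold increase. The aldo-keto reductases split, with AKR1C2 (139 and 132 with F11, against 101 and 99.1 with NS) and AKR1C3 (174 and 176 with F11, against 136 and 133 with NS), which act on steroids and prostaglandins, 1.35-fold and 1.3-fold higher. AKR1B10, which reduces retinal, had 91.4 and 90.3 with F11, against 145 and 155 with NS, where F11 was not above background, and was at least 1.64-fold lower with F11 (adjusted p = 0.00247). AKR1C2 and AKR1C3 are closely similar copies that a probe may not separate. CYP1B1, which oxidises oestrogens and is induced through the aryl hydrocarbon receptor, rose 2.05-fold with 1708 and 1343 with F11, against 752 and 728 with NS, and the aldehyde dehydrogenase ALDH3A1, another target of that receptor, 1.29-fold with 134 and 127 with F11, against 107 and 96.6 with NS. CYP4F3 and CYP26B1, which break down leukotriene B4 and retinoic acid, fell 1.34-fold and 1.41-fold. The other 23 of 26 tested cytochromes P450 and 17 of 18 aldehyde dehydrogenases did not pass. AKR1B10, SCD and PLTP kept their calls with every array left out, and the other 6 lost theirs with either NS array left out, 5 of them with either F12 array left out and 2 with either F11 array left out (adjusted p from 0.0526 to 0.24). CYP4F3 did not pass after normexp, nor ALDH3A1 after cyclic loess.

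**Figure D5:**
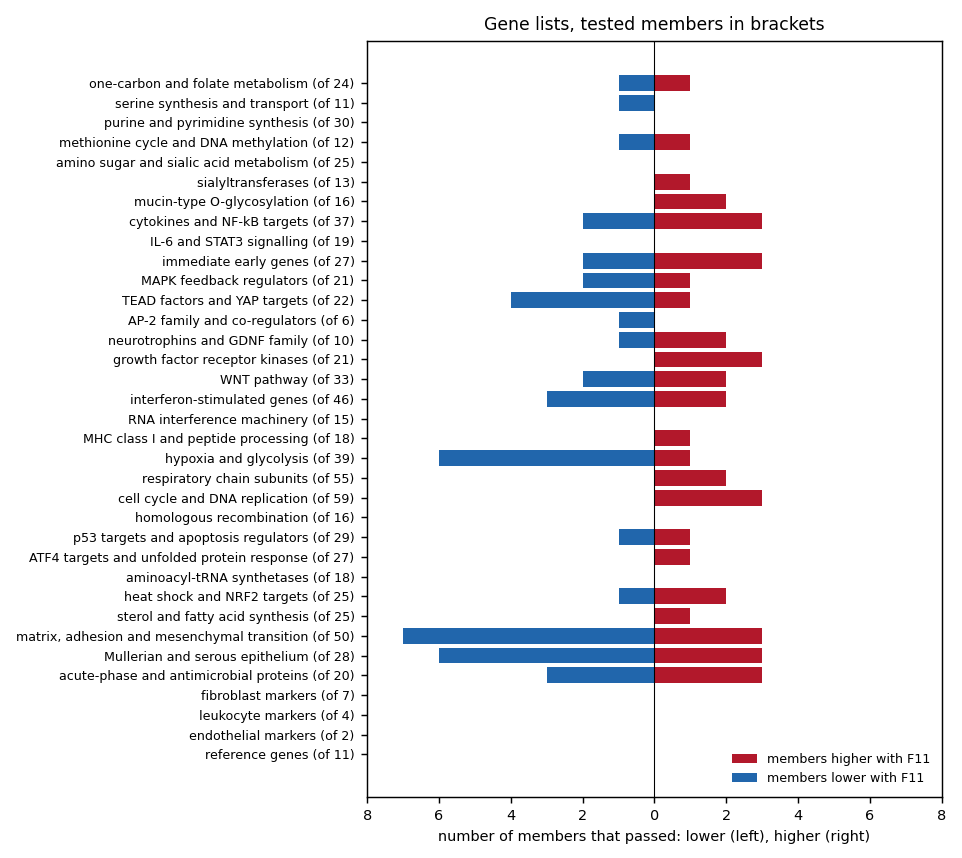
Number of genes that passed in each gene list, leaving out lists grouped after values were seen, lower with F11 to the left and higher to the right of 0, with the number tested in brackets. The longest bars to the left are those of matrix, adhesion and mesenchymal transition (7 of 50), hypoxia and glycolysis (6 of 39) and Mullerian and serous epithelium (6 of 28), and no list in the plot had more than 3 members higher.

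The call threshold ran between close neighbours. Just inside it lay KIF20A, CYSRT1 and CKAP5 (adjusted p from 0.04934 to 0.04996) and just outside SCLY, BZW2 and BOC, each with an adjusted p of 0.0502 and log2 fold changes from 0.28 to 0.29.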

How the data were processed

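Expression was measured on Illumina HumanHT-12 V4 arrays from total RNA. The deposited intensities are linear and, according to the authors' methods and the submitters' processing notes, come from GenomeStudio scans that were log2-transformed and quantile-normalized with lumi, so that every array has nearly the same distribution (70.9 to 15895), and whether background was subtracted before is not stated. A second table of intensities, with columns that match no label, was not used. The background limit, 91.6, was the mode of the intensities (85.5) plus the 95th percentile of the spread below it, and 22981 of 47321 probes above it on at least 2 arrays were tested, for 12852 genes (17242 tested probes named 1 gene in the platform annotation, 4 several and 5735 none, and only the first kind entered gene counts).

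Log2 intensities were fitted with limma 3.58.1 (lmFit and eBayes, R 4.3.3) for 3 groups, F11, F12 and NS, and the difference F11 minus NS was tested two-sided with Benjamini-Hochberg adjustment over all tested probes. A gene passed ("rose" or "fell") where any of its probes had an adjusted p under 0.05. Its values are those of its brightest tested probe unless another is named, and fold changes are 2 to the power of the log2 difference. Named were SHMT1, the 15 largest rises and falls, up to 5 passing members of each gene list and up to 3 of each gene family, and genes that the study names. Other genes were chosen after their values were seen. Members, lists and tests were chosen with earlier results of these data known. The number of arrays limits the precision. Simulated data had 200 of 22981 probes changed and independent normal noise, with no variation shared between same-numbered arrays. On them the same fit for F11 against NS recovered 96% of changes of 0.5 and 100% of changes of 1 on the log2 scale, with 18 false calls among 214. This checks the computation and does not give the power or the false call rate in the real arrays, which may share variation. Alternatives were another filter, background correction (normexp, offset 16), scaling (cyclic loess), variance model, threshold, replicate block, the 4 arrays alone, and leaving out each array. Promoters were taken from RefSeq (GRCh38.p14).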

Additional observations from a re-analysis of the deposited data

How the results depend on the processing

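The calls were 246 genes higher and 242 lower with F11. They numbered 58 and 58 with a change of at least 1.5-fold asked for at any probe, 1458 and 1224 at an unadjusted p under 0.05, and 90 and 83 in a fit of only the 4 arrays compared, which has fewer arrays for the spread. With each array left out in turn they ranged from 40 to 290 higher and from 41 to 283 lower, lowest without NS replicate 2 and highest without F11 replicate 1. With no filter, a stricter filter, normexp, cyclic loess, an intensity trend or probes counted, both counts stayed within 1.5 times. SHMT1 stayed lower with each array left out (-0.67 to -0.90 on the log2 scale) and passed under every other setting tried. SLC44A4, whose dimmer probes fell while its brightest did not pass (0.09), stood at -0.42 as the mean of its probes (adjusted p = 0.0182) and between -0.022 and 0.20 with an array left out. WT1, not called, stood between -0.0016 and 0.24 with an array left out. Of 142 named genes, normexp took the call of 22 and the intensity trend of 7, and the cause was not tested.

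The replicate numbers were tried as a block. Deviations of same-numbered arrays correlated with r = 0.456 for F11 and NS, -0.291 for F12 and NS and -0.310 for F12 and F11. Same-numbered F11 and NS arrays thus varied together in part, while the F12 arrays ran the other way. The labels do not say what a replicate number stands for, and whether it marks a pairing or batch was not tested. The replicate block gave 156 genes higher and 160 lower, and 624 and 615 in a fit of only the 4 arrays, chosen after seeing the data and left with few degrees of freedom.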

Other observations

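The genes of this section were grouped after their values were seen, and their counts are descriptions. Cancer-testis antigens encoded on the X chromosome, which are silent in most adult tissues outside the testis, were lower with F11. Of 11 tested, SSX1, SSX4, SSX3, XAGE2, SSX4B and SSX2 fell and none rose (54.5% against 1.88% of all tested genes). SSX1 had 177 and 200.4 with F11, against 428 and 530.1 with NS, SSX4 had 111 and 118 with F11, against 245 and 254 with NS and XAGE2 had 127 and 135 with F11, against 183 and 184 with NS, decreases of 2.53-fold, 2.18-fold and 1.4-fold. The SSX genes are near-identical copies, so that probes may report more than 1 of them and the 5 SSX calls are not separate evidence. SSX1 kept its call with every array left out, and the others lost theirs, all without NS replicate 2, 3 without NS replicate 1, 3 with either F12 array left out and 1 with either F11 array left out (adjusted p from 0.0518 to 0.247). Of 462 tested genes on the X chromosome 3.68% fell and 1.08% rose, against 1.88% and 1.91% of all tested genes. The antigens named above are among these fallers, so the share on the X chromosome is not separate evidence.

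Peptide hormones and their processing proteins moved in both directions. Of 9 tested, 4 rose and 2 fell (44.4% and 22.2%, against 1.91% and 1.88% of all tested genes). ECEL1, a neuronal metalloprotease, had 148 and 170.4 with F11, against 82.7 and 85.5 with NS, where NS was not above background, and was at least 1.73-fold higher with F11. The neuropeptide galanin, GAL, had 299.9 and 261 with F11, against 156 and 149 with NS, NPW, neuropeptide W, had 165 and 188 with F11, against 102 and 105 with NS, and PCSK1N, which inhibits a prohormone convertase, had 223 and 212 with F11, against 158 and 141 with NS, increases of 1.84-fold, 1.7-fold and 1.46-fold. SST, somatostatin, had 135 and 132 with F11, against 252 and 239 with NS and SCG5, a chaperone of secretory granules, had 182 and 176 with F11, against 261 and 235 with NS, decreases of 1.84-fold and 1.39-fold. Of 35 tested axon guidance genes 5 rose, 1 fell and 29 did not pass. The shares were 14.3% and 2.86%, against 1.91% and 1.88% of all tested genes. Axon guidance genes beside SEMA3A that rose were the netrin receptor UNC5A, with 596 and 565 with F11, against 297 and 316 with NS (1.89-fold), the Rac regulator CHN1, with 318 and 346 with F11, against 190.3 and 204 with NS (1.68-fold), RGMA (1.26-fold) and CRMP1 (at least 1.18-fold, with NS not above background), and the secreted SLIT2 fell 1.23-fold. ECEL1, GAL, NPW, SST, UNC5A and CHN1 kept their calls with every array left out, and PCSK1N, SCG5, CRMP1, RGMA and SLIT2 lost theirs with either F12 array or NS replicate 2 left out, 4 without NS replicate 1, and 2 without F11 replicate 1 and 3 without F11 replicate 2 (adjusted p from 0.0507 to 0.236).

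Prostaglandin E2 is made by PTGES and read by PTGER2 among other receptors. Of 11 tested genes of prostaglandin synthesis and reception 3 fell and 2 rose (27.3% and 18.2%, against 1.88% and 1.91% of all tested genes), and AKR1C3 and PTGS2 were those that rose. PTGES had 264 and 249.5 with F11, against 397 and 419.6 with NS and PTGER2 had 107 and 107 with F11, against 184 and 184 with NS, decreases of 1.59-fold and 1.72-fold (adjusted p = 0.0033 and 0.00247), while PTGS2 upstream of them was higher at 1 of 2 probes. PTGIS, the prostacyclin synthase, fell 1.24-fold, and its call was lost with any array left out (adjusted p from 0.0828 to 0.232), unlike the other two.

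Of 10 tested acyl-CoA synthetases 4 rose and none fell (40%, against 1.91% of all tested genes). Both F11 arrays lay above both NS arrays in 4 and below in 3, with a median log2 fold change of 0.05. Those that rose were ACSS2 with 479 and 487 with F11, against 379 and 329 with NS, ACSS1 with 143 and 144 with F11, against 104 and 115 with NS, ACSL5 with 307 and 325 with F11, against 258 and 236 with NS and ACSM3 with 168 and 178 with F11, against 139 and 136 with NS. Of 10 tested desmosome components DSC3 fell 1.55-fold with 364 and 436 with F11, against 583 and 658 with NS, PKP2 1.35-fold with 225 and 252 with F11, against 307 and 336 with NS, and DSC2 at a dimmer probe. None of these components rose, and 30.0% fell, against 1.88% of all tested genes. The calls of DSC3, PKP2 and these synthetases were lost without NS replicate 2 or either F12 array, 5 of 6 without NS replicate 1, and 3 without F11 replicate 1 and 4 without F11 replicate 2 (adjusted p from 0.05002 to 0.243), though ACSS2 still passed at another probe without F11 replicate 2. ACSS2 and ACSL5 did not pass after normexp.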
